A study of Arabidopsis thaliana with 6 samples.

Results

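VSP1 (AT5G24780), VSP2 (AT5G24770), LOX2 (AT3G45140), CORI3 (AT4G23600) and JAL35 (AT3G16470, also called JR1) are known as jasmonate-responsive genes of Arabidopsis leaves, and their transcript counts were compared between seedlings given melatonin (MT), seedlings given the natural auxin indole-3-acetic acid (IAA) and control seedlings. The 5 genes are 5 of 27978 rows in the count table, and all 5 were among the 21267 genes that passed the filter on low counts. They were picked by locus code, with their rise under IAA over both the MT and the control level in these same libraries already known. Their values in all 3 comparisons are therefore descriptions, with no p-value printed for a single gene. Counts of the 5 past a threshold are descriptions as well. No library was given jasmonate, so whether the 5 genes respond to it was not tested.

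The 6 libraries are wild-type Columbia plants in 3 groups of 2: 10 nM MT, 1 nM IAA, and a control on 0.1% ethanol, the solvent of both compounds. Seedlings were moved to the treatment plates when 4 days old, and the sample titles place all 6 collections at 7 days. The columns of the control libraries say 72 hours instead. The titles do not say whether 7 days is plant age or time on the plates. The control's age therefore cannot be told apart from its lack of treatment in any comparison against it. The sample labels name seedlings and the design text rosette leaves. Whether the replicates are separate cultures is not stated, and p-values therefore cover the spread of these libraries alone, which could be technical.

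Jasmonates are made from plastid fatty acids by lipoxygenases and the enzymes that follow them. Their active form, jasmonoyl-isoleucine, joins the receptor COI1 to the JAZ repressors, and loss of JAZ proteins frees MYC2 and related transcription factors to switch on target genes. In leaves, VSP1, VSP2 and LOX2 are the classical readouts of this MYC branch after wounding or insect feeding. VSP1 and VSP2 are vegetative storage proteins related to acid phosphatases. LOX2 is a plastid lipoxygenase that takes part in jasmonate synthesis and is itself induced by jasmonate. CORI3 is a cystine lyase induced by coronatine, a bacterial mimic of jasmonoyl-isoleucine. JAL35 is a jacalin-related lectin.

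VSP1 and VSP2 are neighbours on the minus strand of chromosome 5 in RefSeq TAIR10.1, at chr5:8507590-8509201 and chr5:8500468-8502224, 5365 bases apart with 1 annotated pseudogene between them. Over 795 aligned bases their coding sequences were 90.4% identical, yet of all 50-base words in their transcripts only 0.374% of those of VSP1 occurred in another gene, which was VSP2. LOX2 lies at chr3:16525245-16529352 (plus strand), CORI3 at chr4:12310379-12313212 (plus strand) and JAL35 at chr3:5595282-5599224 (minus strand). JAL35 shares 631 of its 2653 exon bases with JAL34 on the opposite strand, and the strand setting of the counting is not known here, so reads of that stretch cannot be told apart. The 250 bases before the RefSeq start are shown for the 3 genes with the largest fold changes of IAA against control. These are VSP1 (chr5:8509202-8509451, minus strand), VSP2 (chr5:8502225-8502474, minus strand) and LOX2 (chr3:16524995-16525244, plus strand). Capitals mark a T/G-box (AACGTG or its reverse CACGTT) in VSP1 and a G-box variant (CACATG) in LOX2, sequences of the kind that MYC factors bind.
VSP1: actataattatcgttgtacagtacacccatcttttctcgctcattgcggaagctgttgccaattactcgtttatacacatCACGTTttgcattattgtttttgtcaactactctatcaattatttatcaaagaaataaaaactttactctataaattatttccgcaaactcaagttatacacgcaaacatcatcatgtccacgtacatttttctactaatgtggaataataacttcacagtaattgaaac
VSP2: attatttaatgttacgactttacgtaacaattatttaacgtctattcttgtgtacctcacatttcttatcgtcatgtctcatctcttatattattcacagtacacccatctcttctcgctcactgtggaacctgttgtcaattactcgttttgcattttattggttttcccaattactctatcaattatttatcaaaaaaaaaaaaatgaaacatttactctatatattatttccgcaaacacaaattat
LOX2: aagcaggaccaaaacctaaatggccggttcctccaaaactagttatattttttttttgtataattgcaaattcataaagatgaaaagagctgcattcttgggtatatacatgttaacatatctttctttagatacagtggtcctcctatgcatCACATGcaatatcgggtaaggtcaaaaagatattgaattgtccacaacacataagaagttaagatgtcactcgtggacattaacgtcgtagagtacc

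The T/G-box of VSP1 began 170 bases before the start, and the window of VSP2 held none. Of the 250 bases of each window 163 could be aligned, and 147 of these were identical. The rest of each window lay opposite gaps, as did 2 of the 6 bases of the T/G-box. The LOX2 match began 97 bases before the start. Searched on both strands, the G-box CACGTG was in 6.49% of 27443 promoters of that length and in 0 of the 5 windows, CACATG was in 11.1% and in 1 of 5, and AACGTG was in 7.54% and in 1 of 5. The GCC box GCCGCC, bound by ERF factors, was in 1.87% of all promoters and in 0 of the 5. These MYC-type motifs share letters, and a promoter with several of them was counted 1 time: any of them was present in 22.8% of all promoters and in 2 of the 5 windows. A match is a string of letters, not a shown binding site.

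Both VSP genes were higher with IAA. VSP2 had 13.7 and 12.1 CPM (counts scaled to library size) in the MT libraries, 38.6 and 35.5 CPM in the IAA libraries, and 15.0 and 14.5 CPM in the control libraries. Both IAA libraries thus stood far above the other 4, while both MT libraries lay slightly below both controls. The mean was 37.0 ± 2.21 CPM with IAA and 14.8 ± 0.344 CPM in control (SD, n = 2 each), a ratio of 2.51 (95% interval 2.14 to 2.94).

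VSP1 had the fewest reads of the 5, with 107 to 521 per library. It had 4.63 and 2.67 CPM with MT, 8.03 and 6.27 CPM with IAA, and 3.07 and 3.56 CPM in control. The IAA libraries were again the highest, and the MT libraries lay on both sides of the controls. IAA stood 2.16-fold above control (95% interval 1.41 to 3.31), an interval wider than that of VSP2.

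LOX2, the lipoxygenase gene, also had its highest values with IAA. Its levels were 63.6 and 74.1 CPM with MT, 104 and 97.8 CPM with IAA, and 55.7 and 57.7 CPM in control. No group overlapped another: control was lowest, MT in between and IAA highest. The ratio of IAA to control was 1.78 (95% interval 1.56 to 2.03).

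CORI3, the cystine lyase gene, differed less. It had 19.7 and 18.7 CPM with MT, 31.1 and 25.7 CPM with IAA, and 17.3 and 23.7 CPM in control. The IAA libraries lay above the other 4, although the lower IAA library was close to the higher control. The ratio of IAA to control was 1.39 (95% interval 1.09 to 1.77).

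JAL35 showed no separation. It had 98.6 and 78.2 CPM with MT, 96.0 and 86.7 CPM with IAA, and 82.2 and 91.9 CPM in control. All 3 groups overlapped, and the ratio of IAA to control was 1.05 (95% interval 0.88 to 1.25).

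**Figure D1:**
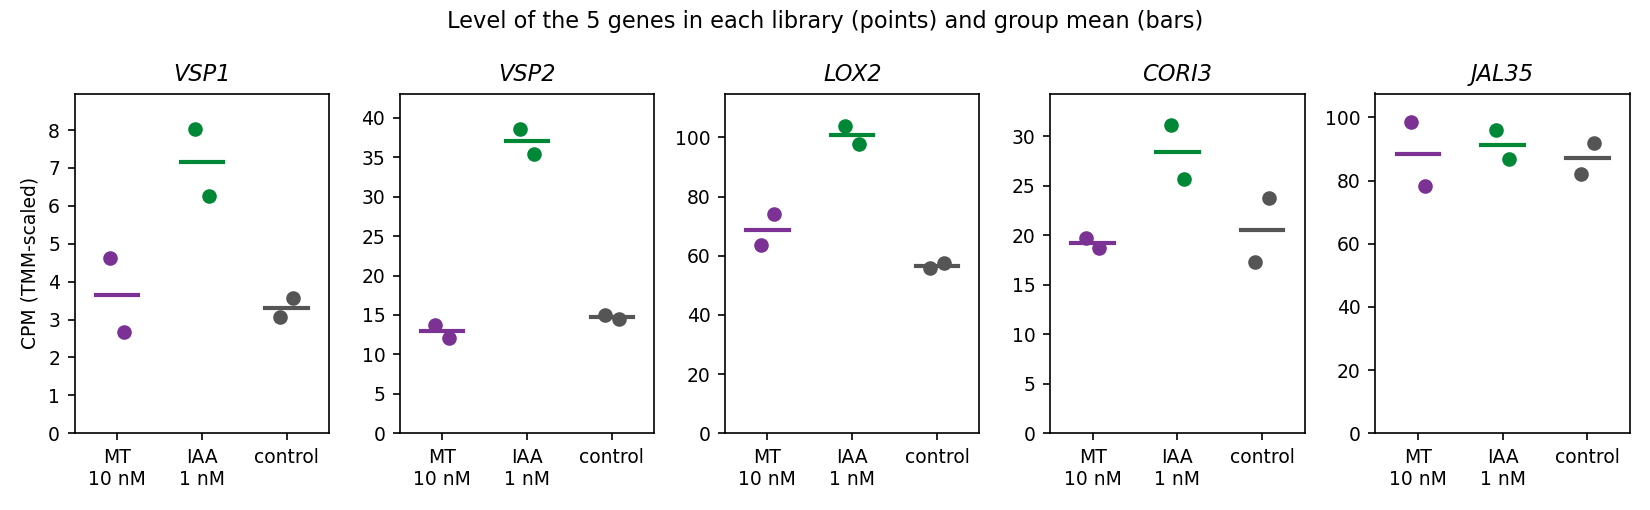
Level in CPM (vertical axes, each from 0) of VSP1, VSP2, LOX2, CORI3 and JAL35 in the 10 nM MT, 1 nM IAA and control libraries; points are libraries and bars the means of 2. The IAA points are the highest for VSP1, VSP2, LOX2 and CORI3, as for VSP2 at 38.6 and 35.5 CPM, while the JAL35 points of the 3 groups overlap.

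For IAA against control, edgeR's quasi-likelihood test at an adjusted p under 0.05 called 2 of the 5 genes higher (VSP2 and LOX2), where 0.583% of all genes tested were called higher; the choice of the genes fixed this count. Both IAA libraries lay above both controls for 4 of the 5 (23.6% of all genes), and above the other 4 libraries for the same 4 genes (9.39%). On the log2 scale the differences were 1.33 ± 0.10 for VSP2, 1.11 ± 0.27 for VSP1, 0.83 ± 0.08 for LOX2, 0.47 ± 0.15 for CORI3 and 0.07 ± 0.11 for JAL35 (SE). The median of the 5 was 0.83, against 0.01 over all genes tested. Without control replicate 1 LOX2 was no longer called (0.80), and without it CORI3 stood at 0.25 in place of 0.47; without control replicate 2 CORI3 stood at 0.70. DESeq2 called VSP1 as well.

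The values of MT against control are also descriptions, since the genes were picked with their MT and control levels known. None of the 5 genes passed the threshold by edgeR's quasi-likelihood test or by DESeq2, where edgeR called 1.89% of all genes. At an unadjusted p under 0.05 there was 1 of the 5, LOX2, and 13.2% of all genes. Both MT libraries lay above both controls for 1 of the 5, LOX2 (22.5% of all genes), and below both for 1, VSP2 (22.2%). LOX2 stood at 0.28 ± 0.08 on the log2 scale (SE; 95% interval 0.09 to 0.47). VSP2 was at -0.19 ± 0.10, with a 95% interval of -0.42 to 0.04. VSP1 was at 0.15 ± 0.27, with a 95% interval of -0.48 to 0.77, and its spread was the widest of the 5. CORI3 was at -0.09 ± 0.16 and JAL35 at 0.02 ± 0.11. The sign of VSP1 depended on the MT libraries, at -0.31 without MT replicate 1 and 0.47 without MT replicate 2, neither past the threshold.

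MT against IAA, at 10 nM and 1 nM and so not at matched dose, showed the distance between the treatments directly. VSP2 was lower with MT by a log2 difference of -1.52 ± 0.10 and VSP1 by -0.97 ± 0.27, whereas CORI3 differed by -0.56 ± 0.15, LOX2 by -0.55 ± 0.08 and JAL35 by -0.05 ± 0.11 (SE). Both MT libraries lay below both IAA libraries for 4 of the 5, a pattern that 20.4% of all genes had. The fit called 1 of the 5 lower, VSP2, beside 0.0141% of all genes (0.0188% in either direction), and 0 higher, beside 0.0047%; the genes were picked with this value known. The direction of the calls over all genes depended on the setting: 25% of the 4 calls were higher with MT, against 72.6% of 255 calls by DESeq2 and 90.9% of 55 without MT replicate 2. Without IAA replicate 1 VSP2 was not called (-1.45), and without MT replicate 2 LOX2 was called as well (-0.67).

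**Figure D2:**
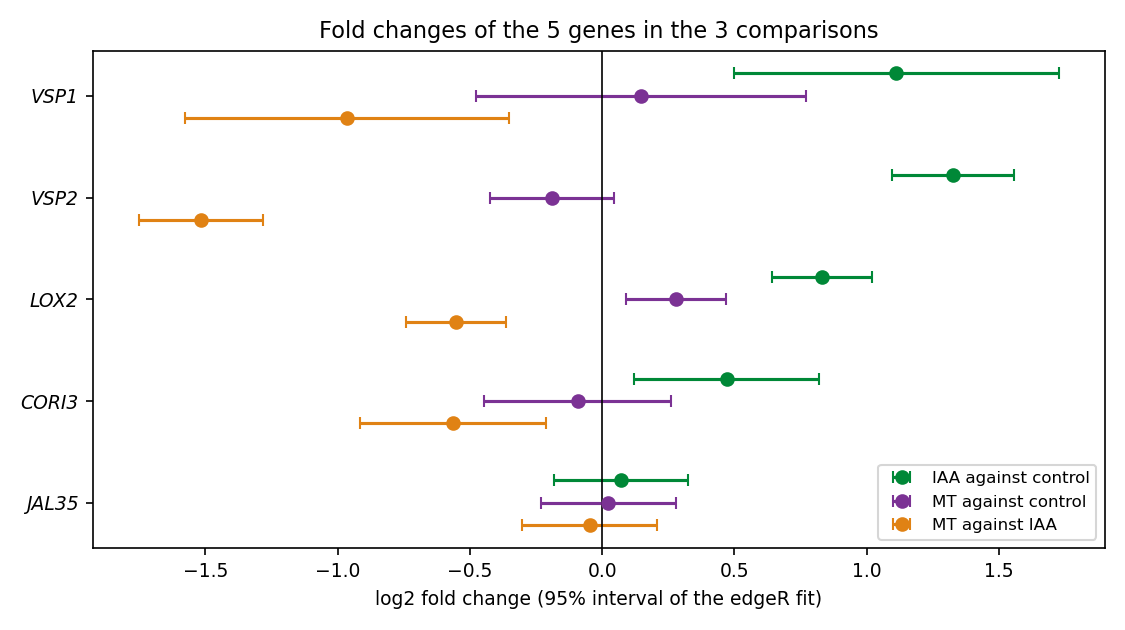
Log2 fold changes of VSP1, VSP2, LOX2, CORI3 and JAL35 (horizontal axis) for IAA against control, MT against control and MT against IAA; points are estimates and bars 95% intervals of the edgeR fit over all 6 libraries. VSP2 lies at 1.33 for IAA against control and at -0.19 for MT against control, and all intervals of JAL35 include 0.

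The 5 genes differed in level as well as in size of change. Per kb of exon, JAL35 was at 33.3 ± 5.42 CPM per kb with MT, 34.4 ± 2.49 with IAA and 32.8 ± 2.57 in control (SD, n = 2). LOX2 followed at 21.2 ± 2.28 CPM per kb with MT, 31.0 ± 1.33 with IAA and 17.4 ± 0.423 in control. VSP2 was at 8.53 ± 0.753 CPM per kb with MT, 24.4 ± 1.46 with IAA and 9.74 ± 0.227 in control, and CORI3 at 8.32 ± 0.304 with MT, 12.3 ± 1.65 with IAA and 8.88 ± 1.96 in control. The libraries of VSP2 and CORI3 overlapped with MT and in control, and only with IAA did VSP2 stand clear of CORI3. VSP1 was lowest, at 2.73 ± 1.04 CPM per kb with MT, 5.34 ± 0.933 with IAA and 2.48 ± 0.262 in control. The level of VSP2 per kb was 2.62 and 4.01 times that of VSP1 with MT, 4.24 and 4.99 times with IAA, and 4.32 and 3.60 times in control, so VSP2 was the more abundant copy in every library. Summing both copies gave a log2 difference of 1.29 for IAA against control, -0.12 for MT against control and -1.41 for MT against IAA.

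Centred on each gene's own mean, the log2 CPM profiles of LOX2 and CORI3 were the closest of the 10 pairs, with a root mean square difference of 0.226 over the 6 libraries. CORI3 and JAL35 followed at 0.248 and VSP1 and VSP2 at 0.291. This difference is not scaled to each gene's range, so genes that change little lie close whatever their pattern. In the IAA libraries CORI3 was at 0.48 and 0.21 and JAL35 at 0.12 and -0.03. VSP2 and JAL35 were farthest apart at 0.65. Both VSP copies were above their own means in both IAA libraries, whereas in MT replicate 1 VSP1 was at 0.09 and VSP2 at -0.48 relative to their own means.

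**Figure D3:**
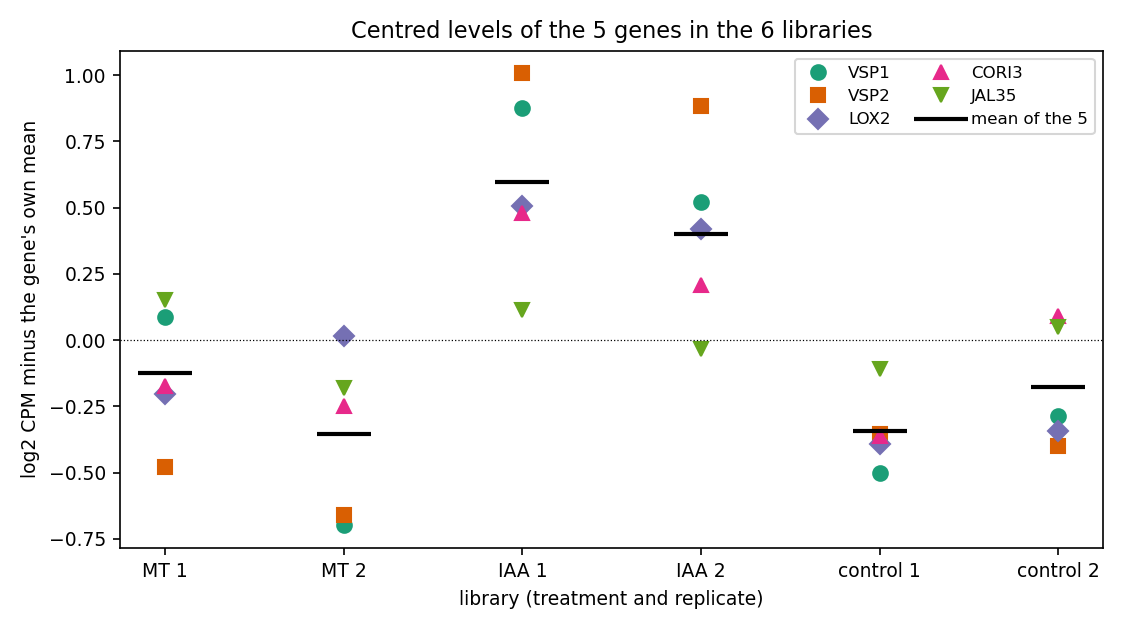
Log2 CPM of VSP1, VSP2, LOX2, CORI3 and JAL35 minus each gene's own mean (vertical axis) in each of the 6 libraries; the black bar is the mean of the 5. The mean is 0.60 and 0.40 in the IAA libraries and negative in the other 4, and VSP2 spans the widest range, 1.01 to -0.66.

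Some upstream genes of the pathway rose in both treatments. The 7 lists of other jasmonate genes held 86 genes, of which 79 were tested. All 7 were drawn up with earlier results of these data known. Counts and p-values of listed genes, here and below, are therefore descriptions and no independent support. With MT 7 of these 79 rose and 1 fell against control, where 1.67% of all genes were called higher and 0.226% lower. With IAA 5 of 79 rose and 0 fell, where 0.583% were called higher and 0.118% lower. The gene that fell with MT, AT1G52000, is 1 of these 5 and was listed with its values known. At an unadjusted p under 0.05 there were 26 of the 79 with MT, beside 13.2% of all genes, and 17 with IAA, beside 11% of all genes. Both comparisons share the control libraries. The median log2 fold change of the 79 was 0.08 in each, against 0.00 with MT and 0.01 with IAA over all genes. The counts depended on single libraries. With MT the 8 calls became 4 without MT replicate 1 or control replicate 1, 5 without control replicate 2 and 14 without MT replicate 2. With IAA the 5 calls became 0 without IAA replicate 2 or control replicate 1, 1 without IAA replicate 1, and 3 without control replicate 2 or MT replicate 2.

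In the synthesis list, 3 of 14 genes tested rose with MT and 2 with IAA, where 1.67% and 0.583% of all genes were called higher. The list was drawn up with earlier results known, so its adjusted p-values describe these libraries only. LOX4, a lipoxygenase of the same branch as LOX2, had 14.3 and 17.7 CPM with MT, 10.9 and 9.89 CPM with IAA, and 4.75 and 4.74 CPM in control. Its log2 fold change was 1.75 ± 0.14 with MT (adjusted p = 0.000897) and 1.13 ± 0.14 with IAA (adjusted p = 0.0187; SE, and edgeR's quasi-likelihood test throughout). By library values LOX4 was thus highest with MT, where LOX2 was highest with IAA. Between MT and IAA, however, 0 of the 14 synthesis genes were called (0.0188% of all genes), and LOX2 was not called either in the main fit. DLAH, a lipase gene related to DAD1, which releases the fatty acid precursor, rose by 3.76 ± 0.31 with MT and by 2.89 ± 0.31 with IAA. AOC3, an allene oxide cyclase, rose by 1.2 ± 0.24 with MT (adjusted p = 0.0445 by edgeR's quasi-likelihood test). With IAA it stood at 0.95 ± 0.24 and was not called.

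Among genes of perception and repression, 3 of 20 rose with MT and 2 with IAA, where 1.67% and 0.583% of all genes were called higher. The same limit holds for the p-values of this list, which was also drawn up with earlier results known. MYC2, the transcription factor upstream of VSP and LOX2, had 94.6 and 96.0 CPM with MT, 80.8 and 88.0 CPM with IAA, and 36.4 and 49.0 CPM in control. Its log2 fold change was 1.16 ± 0.12 with MT (adjusted p = 0.00285) and 0.98 ± 0.12 with IAA (adjusted p = 0.0187; SE, and edgeR's quasi-likelihood test throughout). MYC2 levels with MT and with IAA were thus both above both controls, whereas for VSP2 the MT libraries lay below both controls. The repressor JAZ1 had 52.2 and 55.1 CPM with MT, 44.7 and 47.1 CPM with IAA, and 15.6 and 25.4 CPM in control. JAZ5, another repressor, rose by 1.62 ± 0.31 with MT (adjusted p = 0.0415 by edgeR's quasi-likelihood test). With IAA it stood at 1.35 ± 0.31 and was not called. Between MT and IAA 0 of the 20 genes were called (0.0188% of all genes). In the breakdown list 0 of 9 genes were called with either treatment by edgeR's quasi-likelihood test. Of all genes 1.89% were called with MT and 0.701% with IAA. At an unadjusted p under 0.05 there was 1 of 9 with MT, beside 13.2% of all genes, and 0 with IAA, beside 11%.

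Among other outputs of the MYC branch 1 gene was called. AT1G52000, annotated as a mannose-binding lectin, had 11.1 and 12.7 CPM with MT, 29.3 and 26.3 CPM with IAA, and 18.1 and 17.4 CPM in control. The gene was listed with its values in these data known, so they are descriptions, with no p-value. Both IAA libraries lay above both controls, at a log2 difference of 0.65 ± 0.10, and both MT libraries below them, at -0.58 ± 0.11 (SE). The fit called it in both, and it was the 1 of 79 genes called lower with MT than with IAA, at -1.23 ± 0.11 (0.0141% of all genes). That last call was lost without MT replicate 1 and without IAA replicate 1. It was the only 1 of 12 tested genes of its list called in any comparison. Against control, 1.89% of all genes were called with MT and 0.701% with IAA. The median of the list was -0.48 with MT and 0.45 with IAA. With MT it lay between MBP2 (-0.39) and AT1G52000 itself, so it rests in part on the gene picked. TPS04, JAL23 and AT1G54020 had at most 0.42 CPM in any library. With MT 2 of 12 were above 0, JAL22 at 0.55 ± 0.20 and KTI1 at 0.36 ± 0.25 (SE), and with IAA 8 of 12. Of all genes, 49.3% were above 0 with MT and 53.6% with IAA.

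Relatives of the 5 genes came from the jacalin and acid phosphatase families. In the 8 genes of the jacalin cluster beside JAL35 all log2 fold changes were above 0, with medians of 0.48 with MT and 0.30 with IAA. Of all genes, 49.3% were above 0 with MT and 53.6% with IAA. By edgeR's quasi-likelihood test 0 of the 8 were called in either (4 and 1 at an unadjusted p under 0.05). Of all genes 1.89% were called with MT and 0.701% with IAA. In each of the 8, MT replicate 1 was above MT replicate 2 and both controls. JAL34 had 352 and 204 CPM with MT and 163 and 227 CPM in control, and JAL31 had 40.2 and 24.3 CPM with MT and 15.9 and 22.9 CPM in control. JAL31 had the lowest p with MT, at 0.74 ± 0.23 (adjusted p = 0.206), and NSP4, a nitrile-specifier protein of glucosinolate breakdown, with IAA, at 0.47 ± 0.16 (adjusted p = 0.331). Of 8 acid phosphatases related to VSP, AT1G04040 rose with MT, with 35.8 and 23.6 CPM against 14.4 and 17.3 CPM in control. Its log2 fold change was 0.91 ± 0.18 (adjusted p = 0.0478 by edgeR's quasi-likelihood test), 1 of 8 where 1.67% of all genes were called higher. With IAA it had 24.4 and 23.0 CPM (0.58 ± 0.18) and was not called. Of the 8, 0 were called with IAA (2 at an unadjusted p under 0.05, beside 11% of all genes). Between MT and IAA 0 of the 8 were called (0.0188% of all genes). AT4G29270 had the lowest p of these with IAA, at 0.71 ± 0.21 (adjusted p = 0.252). Outputs of the ERF branch, the arm of jasmonate response that needs ethylene, had 0 of 8 called with either treatment by edgeR's quasi-likelihood test. At an unadjusted p under 0.05 there were 3 with MT, beside 13.2% of all genes, and 2 with IAA, beside 11%. The chitinase gene PR3 was nearest with MT, at 0.53 ± 0.17 (adjusted p = 0.213).

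**Figure D4:**
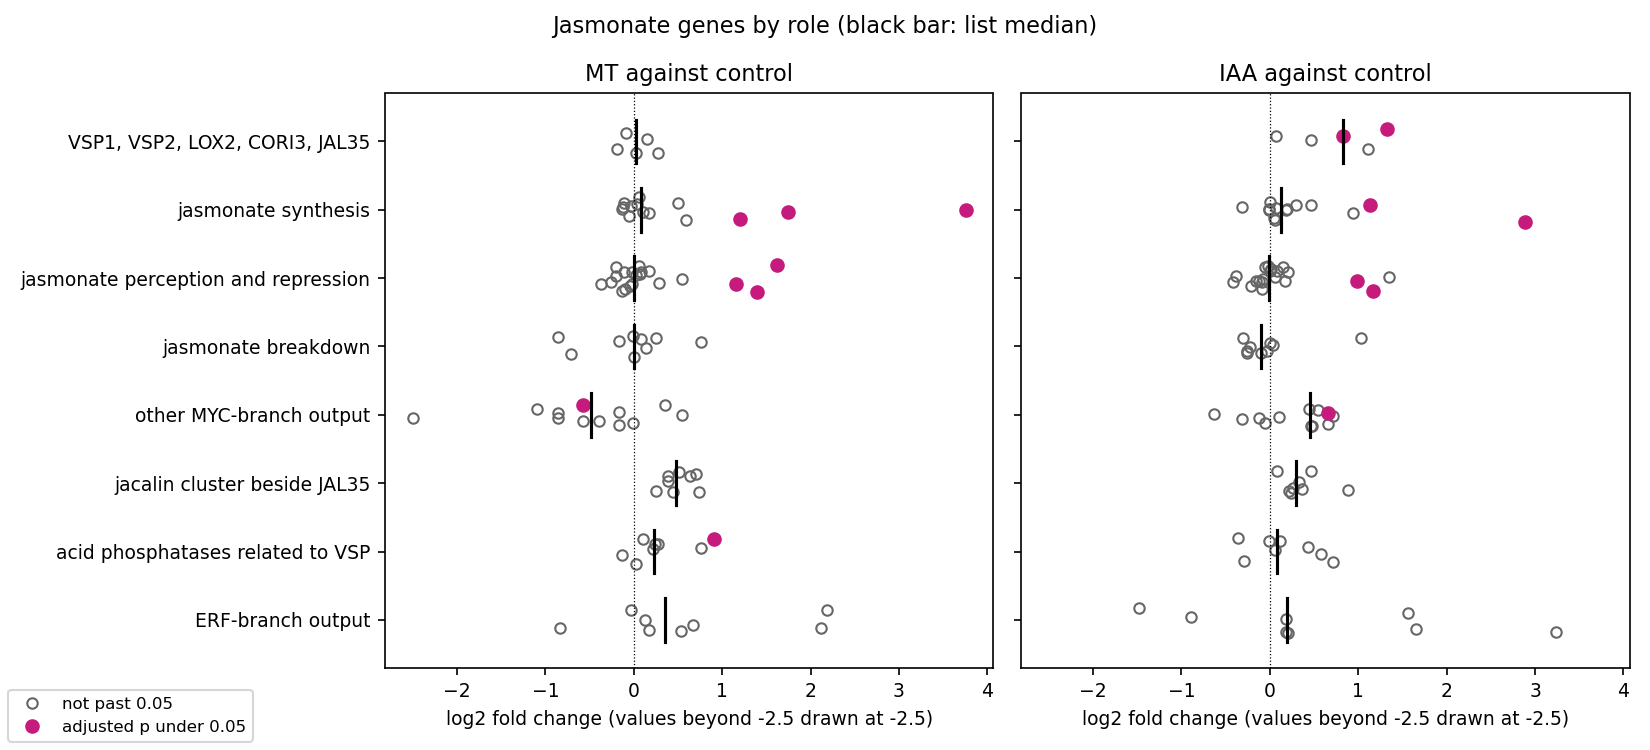
Log2 fold changes (horizontal axes) of the tested genes of 8 groups of jasmonate genes for MT against control and IAA against control; filled points passed an adjusted p of 0.05, open points did not, and black bars are list medians. VSP1, VSP2, LOX2, CORI3 and JAL35 have a median of 0.02 with MT and 0.83 with IAA, while called genes of synthesis and perception lie to the right in both.

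Profiles were then compared over all genes by the same unscaled difference, in which size of change counts as well as pattern. Among 15003 other genes with a mean of at least 5 CPM, UGT85A1, a cytokinin glucosyltransferase, lay closest to the mean profile of the 5, with a root mean square difference of 0.115 log2 units, against a median of 0.381 for all. It had 9.75 and 8.45 CPM with MT, 14.9 and 12.1 CPM with IAA, and 9.31 and 9.29 CPM in control. TGG2, a myrosinase that cleaves glucosinolates, was next at 0.124, with 249 and 259 CPM with MT, 430 and 439 CPM with IAA, and 249 and 243 CPM in control. AT1G66940, AAC2 (a mitochondrial ADP/ATP carrier), the mitosis gene CDC20.1, UGT75B1, AT3G55710 and AT5G64342 completed the nearest 8, at 0.124 to 0.156. Closest to VSP2 alone were AT1G52000 (0.295), TGG2 (0.319), ESP (0.374), which directs glucosinolate breakdown, and PME5 (0.378), a pectin methylesterase, followed by AT1G66940, AT1G07400, ROPGEF6 and ATK1. ESP had 8.68 and 6.26 CPM with MT, 15.1 and 10.99 CPM with IAA, and 4.6 and 5.96 CPM in control.

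Total counts ran from 40087221 to 65558371 per library, so a count of 3 equals 0.0458 to 0.0748 CPM, far below the lowest VSP1 value. The 13 leaf photosynthesis markers summed to 65606 and 67848 CPM with MT, 71193 and 70409 CPM with IAA, and 68787 and 65843 CPM in control. The IAA sums were thus highest for leaf markers too, with a median log2 fold change of 0.06 against control. Single markers were divided: 8 of 13 were above 0 with IAA, beside 53.6% of all genes, and GAPA1 was lowest at -0.04. By edgeR's quasi-likelihood test 0 of 13 were called with IAA, beside 0.701% of all genes. At an unadjusted p under 0.05 there were 3 of 13, beside 11% of all genes. The 12 root markers, none at 0 in any library, summed to 86.8 and 50.2 CPM with MT, 39.8 and 46.4 CPM with IAA, and 20.3 and 31.7 CPM in control, with a log2 fold change above 0 for 12 of 12 genes with MT and 11 of 12 with IAA. Of all genes, 49.3% were above 0 with MT and 53.6% with IAA. By edgeR's quasi-likelihood test 3 of the 12 rose with MT, beside 1.67% of all genes called higher. With IAA 0 of the 12 were called, beside 0.701% of all genes. At an unadjusted p under 0.05 there were 10 with MT, beside 13.2% of all genes, and 4 with IAA, beside 11%. MT replicate 1 had the highest root sum and 0.285% plastid-encoded reads, against 0.0196% to 0.0244% in the other 5. The part of leaf or root share in the values of the 5 genes was not tested. Whether whole seedlings or rosette leaves were taken is not settled by the labels. In either, fewer cells of a type cannot be told apart from less RNA per cell.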

How the data were processed

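RNA-seq read counts per gene were used as deposited by the authors, as whole numbers with no normalization. Per the submitters' processing notes, DESeq, HTSeq 0.6.1, TopHat2 2.0.12 and Bowtie2 2.2.3 were run, at steps that are not described. For the genome build, annotation, library kit and strand setting, the value is not given in the sources used here. All 6 libraries were fitted together with edgeR 4.0.16 (R 4.3.3), with filterByExpr (21267 of 27978 rows kept), TMM factors, glmQLFit and glmQLFTest, and Benjamini-Hochberg adjustment over all genes at 0.05. SE is the log2 fold change divided by the root of the F statistic. No libraries were identical, and those of 1 group differed by more than sampling noise (chi-square per degree of freedom 9.16 to 18.2), so none were merged; this does not show separate cultures.

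The 5 genes and the lists were chosen with earlier results of these data known. Named genes were the 5, up to 3 called genes per list and comparison or else the gene with the lowest p, and the 8 nearest profiles (log2 CPM, prior count 2); not all are described. Gene positions, exon lengths and promoter sequences come from RefSeq TAIR10.1, which matched 26719 rows and all 116 listed genes by locus code. DESeq2 1.42.0, voom in limma 3.58.1, other scalings and filters, a replicate block, fits of the compared groups alone, VSP1 and VSP2 summed, and leaving out each library were tried.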

Additional observations from a re-analysis of the deposited data

How the results depend on the processing

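For IAA against control 149 genes were called, with 268 under no filter on low counts, 475 by DESeq2, 81 with only the groups compared, and 17 to 109 when leaving out each library. For MT against control the count was 403, with 823 by DESeq2 and 112 to 447 when leaving out each library. For MT against IAA it was 4, with 13 under no filter, 255 by DESeq2 and 0 to 55 when leaving out each library. Of the other jasmonate genes 5 were called with IAA (3 with only the groups compared, 0 to 4 leaving out libraries), 8 with MT (4 with a mean of at least 5 CPM, by limma-voom or with only the groups compared, 4 to 14 leaving out libraries) and 1 between MT and IAA (2 by DESeq2, 0 to 1 leaving out libraries). Of VSP1, VSP2, LOX2, CORI3 and JAL35, 2 were called with IAA (1 to 2 leaving out libraries), 0 with MT under every alternative run, and 1 between MT and IAA (2 by DESeq2 or under no filter, 0 to 2 leaving out libraries). VSP2, LOX2, VSP1 and CORI3 kept the sign of their IAA difference under every alternative run, VSP2 at 1.25 to 1.38. Signs turned only when a library was left out: JAL35 ran from -0.018 to 0.14 with IAA, from -0.15 to 0.17 with MT and from -0.22 to 0.11 between them, and with MT VSP1 ran from -0.31 to 0.47 and CORI3 from -0.31 to 0.14. Where a left-out library leaves 1 sample in a group, that sample is assumed to vary like the others; the cause of the lost calls was not tested. A filter at 5 CPM leaves out VSP1, so it has no value there. Some settings raised the counts: DESeq2 called 3 of the 5 genes and 7 other jasmonate genes with IAA. With MT, DESeq2 called 12 other jasmonate genes and the fit with no filter 11.

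The replicate numbers share no stated batch. Deviations of same-numbered libraries correlated at 0.0328 for IAA and control, -0.149 for MT and control and 0.0119 for MT and IAA over genes. With the replicate number as a block 137, 351 and 5 genes were called for IAA against control, MT against control and MT against IAA, and the calls among the 5 genes numbered 2, 0 and 1. With the MT numbers crossed, chosen after seeing the data, the block called 535 genes for MT against control, 0 of the 5.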
